A study of Rattus norvegicus with 12 samples.

Results

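The genes described here encode the transforming growth factor-β (TGF-β) and bone morphogenetic protein (BMP) signaling system, 64 of the 17301 gene names with RNA sequencing values in adult rat ventricular myocytes (ARVMs). Members were chosen by gene symbol alone, as every name that begins with Tgfb, Bmp, Smad, Acvr, Inhb, Gdf, Ltbp, Fstl, or Smurf, each followed by a digit where the family is numbered, together with Id1 to Id4 and Fst. By role they are 24 ligands, 10 extracellular binding proteins, 12 receptors, 10 Smads or Smurf ubiquitin ligases, and 5 target genes. The other 3 match by symbol but were given none of these roles (Bmp1, Tgfb1i1, and Tgfbrap1). ARVMs from hearts of adult male Sprague Dawley rats were transduced in culture at 50 MOI with an adenovirus carrying either human NR4A2 (Ad-h-NR4A2) or green fluorescent protein (Ad-GFP), and RNA was collected after 48 h, from 6 samples of each group. NR4A2 is an orphan nuclear receptor induced in the heart by β-adrenergic stimulation, and the comparison asks which transcripts change when it is overexpressed. Both groups were cultured in the same serum-free medium with 2,3-butanedione monoxime, a contraction blocker, which was not changed after transduction, and neither group received an adrenergic agonist. Ad-GFP is thus a virus control, and no sample without virus is included. The samples carry the numbers 24 to 29 in each group. The study describes independent experiments with cells of different rats, but the labels do not say what a number stands for.

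In this pathway a secreted ligand dimer joins type 2 and type 1 receptor kinases on the cell surface, and the type 1 receptor phosphorylates a receptor Smad. TGF-β and activin receptors act mainly through Smad2 and Smad3, and BMP receptors through Smad1, Smad5, and Smad9. The phosphorylated Smad binds Smad4 and enters the nucleus, where BMP signals typically raise the Id genes. Latency proteins, follistatin-like proteins, and chordin-like proteins hold ligands outside the cell, and Smad6, Smad7, and the Smurf ligases restrain the signal inside it. In the heart the system is best known for fibrosis, hypertrophy, and valve formation.

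Expression is given as FPKM, the fragments of a transcript divided by its length and by all mapped fragments, as the authors calculated it, so that levels of different genes can be set side by side. Groups were compared with limma on log2(FPKM + 0.1), two-sided and unpaired, over the 10950 genes above 0 in all 12 samples, with Benjamini-Hochberg adjustment over all of them. The added 0.1 makes the change of a gene of low FPKM appear smaller than it is. A gene is said to have risen or fallen where the adjusted p was below 0.05 and the ratio of mean FPKM was at least 1.5. Depth was 18700000 to 28100000 fragments in Ad-GFP and 21600000 to 27200000 in Ad-h-NR4A2 samples. The Nr4a2 entry, the check of the labels, went from 0.884 ± 0.309 (SD, n = 6) to 524 ± 70.3 FPKM (SD, n = 6), a log2 fold change of 9.10. The virus carries the human gene, and reads were aligned to the rat genome. Transcripts of the virus and of the rat gene therefore cannot be told apart in that value. Cardiomyocyte markers (6 genes) summed to 17688 to 22842 FPKM in Ad-GFP and 15658 to 19261 in Ad-h-NR4A2 samples. Markers of fibroblasts summed to 9.32 to 31.4 and 6.01 to 28.1 FPKM, and of endothelial cells to 9.96 to 31.8 and 11.3 to 33.6, respectively. Of the 10 fibroblast markers, Col1a2 was listed at 0 in all samples, and the 9 others were above 0 in every sample.

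Follistatin, an activin subunit, Bmp2, and Id2 rose, whereas Gdf15, which was the ligand of highest level, Tgfb2, Tgfb3, the TGF-β-induced gene Tgfbi, and the receptors Tgfbr3 and Acvr2a fell. Of the 64 members, 47 passed the filter and were tested, and 10 of these changed (21.3%), against 15.2% of all genes tested. The 4 that rose were Fst, Inhbb, Bmp2, and Id2 (8.51%, against 7.94% of all genes). The 6 that fell were Gdf15, Tgfbi, Tgfb3, Tgfbr3, Tgfb2, and Acvr2a (12.8%, against 7.24%). By adjusted p, whatever the fold, 20 members differed (42.6%, against 40.9% of all genes tested). Of these, 6 members were higher (12.8%, against 19.3% of all genes) and 14 lower (29.8%, against 21.7%). With a replicate block for the sample number, 25 members passed the adjusted p (53.2%, against 59.4% of all genes). The median log2 fold change was -0.13 over the members and -0.02 over all genes. All 10 members that changed did so in the same direction in 6 of 6 same-numbered pairs. They were called on the same values, so this is no separate support, and the share among all genes called was not counted. These are bulk samples, in which fewer cells of a type and less RNA per cell cannot be told apart.

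**Figure D1:**
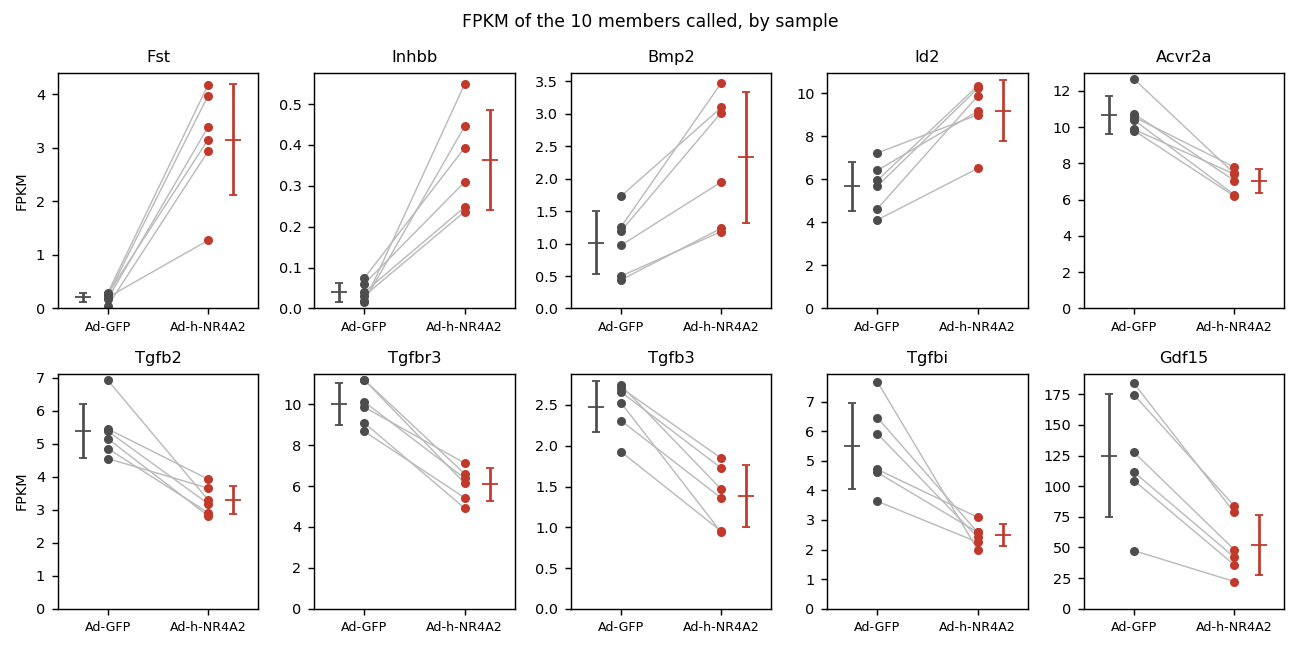
FPKM (vertical axes, each from 0) of the 10 members that rose or fell, with 1 point per sample, grey lines between samples of the same number, and the mean ± SD of 6 samples beside each group. Fst, Inhbb, Tgfb2, Tgfbr3, Tgfb3, Tgfbi, and Acvr2a show no overlap between groups, whereas Bmp2, Id2, and Gdf15 overlap, with every line running the same way.

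Among the ligands, the largest level by far was that of Gdf15, a stress-induced hormone that acts on a receptor in the brainstem and is a marker of heart failure. It lies on chromosome 16 of Rn5 from 20411167 to 20413750. Ad-GFP samples held 47.4 FPKM (sample 27) to 184 (sample 24), with a median of 120, and Ad-h-NR4A2 samples 22.2 (sample 27) to 83.8 (sample 28), with a median of 45.2. Both groups were spread widely and overlapped, but in each pair the Ad-h-NR4A2 sample was the lower, at 0.342 to 0.480 of its Ad-GFP partner. On the log2 scale it fell by 1.29 (SE 0.36), with an adjusted p of 0.011 (limma) and an exact permutation p of 0.0152. In the fit with a replicate block for the sample number, the SE was 0.06. In the RefSeq promoter table (build GRCr8), Gdf15 has 2 listed starts. Its upstream sequences are shown because this member had the highest FPKM among those that changed and because both windows hold AGGTCA, the half-site bound by many nuclear receptors, set in capitals. They are the 250 bases before each start, on the + strand, at chr16:18838186-18838435 and chr16:18839015-18839264, and the second lies downstream of the first start.
Gdf15, first start: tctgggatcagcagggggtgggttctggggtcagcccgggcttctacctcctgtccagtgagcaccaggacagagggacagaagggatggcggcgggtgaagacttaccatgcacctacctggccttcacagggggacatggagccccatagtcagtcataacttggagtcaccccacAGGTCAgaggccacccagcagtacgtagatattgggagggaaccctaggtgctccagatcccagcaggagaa
Gdf15, second start: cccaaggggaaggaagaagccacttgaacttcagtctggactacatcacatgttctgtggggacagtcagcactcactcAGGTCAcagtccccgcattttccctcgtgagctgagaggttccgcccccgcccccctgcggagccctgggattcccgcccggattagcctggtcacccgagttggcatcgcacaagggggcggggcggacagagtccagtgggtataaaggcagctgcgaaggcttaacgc
The half-site lies 72 bases before the first start and 171 bases before the second.

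Of the 64 members, 52 have an entry in that table, among them 8 of the 10 that changed (Fst and Bmp2 have none). On either strand, AGGTCA occurred in 14.1% of all 33469 promoters. Among members it occurred in 4 of 55 promoters, a smaller share, namely those of Fstl3, Gdf15 (both starts), and Gdf9. The longer NR4A site AAAGGTCA (NBRE), which contains AGGTCA, was present in 1.24% of all promoters and, of the members, only in Gdf9, whose FPKM averaged 0.326 ± 0.153 and 0.336 ± 0.244 in Ad-GFP and Ad-h-NR4A2 samples (SD, n = 6 each). The palindromic Smad site GTCTAGAC was found in 0.173% of promoters and in no member, and the cyclic AMP response element TGACGTCA in 1.59% and in Fstl4 and Ltbp1. For contrast, the 250 bases before the start of Inhbb (chr13:33089374-33089623, - strand), which rose, hold none of these motifs.
Inhbb: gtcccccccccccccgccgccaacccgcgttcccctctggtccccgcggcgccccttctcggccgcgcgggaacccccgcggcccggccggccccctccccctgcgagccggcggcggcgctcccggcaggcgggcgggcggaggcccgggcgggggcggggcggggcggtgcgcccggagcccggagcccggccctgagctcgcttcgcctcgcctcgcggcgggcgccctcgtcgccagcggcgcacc
They are 86.8% G or C, and the 2 Gdf15 windows are 59.6% and 61.2%. A match in these letters is a description of the sequence and was not tested as a binding site.

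The 3 TGF-β ligands are paracrine growth factors that are secreted in a latent form, and Tgfb2 had the highest FPKM of them. Its FPKM was 4.55 to 6.92 (median 5.26) in Ad-GFP and 2.81 to 3.92 (median 3.24) in Ad-h-NR4A2 samples. The groups did not overlap, and Ad-GFP sample 29 stood highest. Tgfb2, on chromosome 13 of Rn5 from 109681280 to 109791576, fell by 0.69 on the log2 scale (SE 0.11, adjusted p = 2.47e-04). Tgfb3 (chromosome 6, 119222052 to 119243828) ranged from 1.93 to 2.74 FPKM (median 2.59) and from 0.939 to 1.85 (median 1.41). Every Ad-h-NR4A2 sample was below every Ad-GFP sample, although sample 27 of Ad-GFP came close to sample 25 of Ad-h-NR4A2. Tgfb3 fell by 0.83 on the log2 scale (SE 0.17, adjusted p = 0.00129). Tgfb1, the isoform most often tied to fibrosis, had 0.566 to 3.34 FPKM in Ad-GFP and 0.299 to 2.60 in Ad-h-NR4A2 samples, and its log2 fold change of -0.38 (95% interval -1.35 to 0.59, adjusted p = 0.537) did not pass, but its adjusted p was 0.040 with the replicate block. In both groups Tgfb1 was highest in sample 25 and lowest in sample 28.

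Inhbb, the βB subunit that forms activin B and inhibin B, rose from a very low level. Ad-GFP samples held 0.0154 to 0.0743 FPKM (median 0.0355), or 1 to 6 fragments, and Ad-h-NR4A2 samples 0.237 to 0.549 (median 0.351), or 16 to 36 fragments. The groups were far apart, with the lowest Ad-h-NR4A2 sample, 26, above all Ad-GFP samples. Inhbb (chromosome 13, 40555699 to 40561388) rose by 1.70 on the log2 scale (SE 0.18, adjusted p = 6.80e-06), and the mean FPKM was 9.13 times higher. The size of the log2 value depends on the added 0.1, and it was 0.39 with 1 added instead and 2.98 with 0.01. Inhba, the βA subunit of activin A, averaged 0.357 ± 0.121 and 0.342 ± 0.147 FPKM (SD, n = 6 each) in Ad-GFP and Ad-h-NR4A2 samples, with a 95% interval of the log2 fold change of -0.62 to 0.47. Mean FPKM of Inhbb (0.0398) was thus far below that of Inhba in Ad-GFP samples and close to it in Ad-h-NR4A2 samples (0.364).

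Bmp2, a BMP needed for heart valve and cushion formation, rose as well. Its FPKM was 0.440 to 1.73 (median 1.08), or 9 to 53 fragments, in Ad-GFP samples and 1.19 to 3.47 (median 2.48), or 28 to 92 fragments, in Ad-h-NR4A2 samples. The groups overlapped, since samples 24 and 25 were low in both, and the ratio within pairs was 1.79 to 2.81. Bmp2 (chromosome 3, 132822229 to 132830719) rose by 1.14 on the log2 scale (SE 0.35; limma, adjusted p = 0.0181; exact permutation p = 0.0216), or by 0.70 with 1 added in place of 0.1. Without the filter on low values, its adjusted p was 0.053 (limma), so that the call was lost. Gdf11, a ligand close to myostatin, was higher by adjusted p but short of the fold limit, at 7.65 ± 2.01 and 10.3 ± 1.48 FPKM (SD, n = 6 each; log2 fold change 0.44, adjusted p = 0.0237). Its value in sample 25 stood far above the rest in both groups. Bmp4, Bmp5, Bmp6, and Gdf9 did not pass, with log2 fold changes of -0.13, -0.37, -0.45, and -0.04, although Bmp5 and Bmp6 had an adjusted p of 0.0306 and 0.0382 with the replicate block (limma). Of the 12 ligands tested, 2 rose and 3 fell, where 7.94% of all genes tested rose and 7.24% fell. The median log2 fold change of the ligands was -0.25.

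The largest difference of any member was that of Fst, which encodes follistatin, a secreted protein that binds activins with high affinity and, less tightly, some BMPs and GDFs. Fst had 0.0524 to 0.294 FPKM (median 0.226), or 1 to 7 fragments, in Ad-GFP samples and 1.27 to 4.17 (median 3.27), or 24 to 94 fragments, in Ad-h-NR4A2 samples. No value was shared between groups, although sample 24 of Ad-h-NR4A2 lay well below the other five. On chromosome 2 of Rn5 from 65577888 to 65583544, Fst rose by 3.37 on the log2 scale (SE 0.29, adjusted p = 8.95e-07), and its mean FPKM was 15.1 times higher. The exact permutation p was 0.00216, which is as low as 6 samples per group can give. With 1 or 0.01 added in place of 0.1, the log2 value was 1.73 or 3.91. The related Fstl3, which also binds activins, did not pass, at 3.13 ± 0.311 and 3.28 ± 0.902 FPKM (SD, n = 6 each), with a 95% interval of the log2 fold change of -0.33 to 0.38. Mean FPKM of Fst was thus far below that of Fstl3 in Ad-GFP samples (0.209) and close to it in Ad-h-NR4A2 samples (3.15). Fstl1, a secreted glycoprotein made by many heart cells, ranged from 0.646 to 2.44 and from 0.517 to 2.35 FPKM.

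Latent TGF-β binding proteins anchor the inactive ligand in the matrix. Ltbp3 had the highest level, at 6.98 ± 0.784 FPKM in Ad-GFP and 5.74 ± 0.464 in Ad-h-NR4A2 samples (SD, n = 6 each), and was lower by adjusted p alone (log2 fold change -0.28, adjusted p = 0.0208). Ltbp1, Ltbp2, and Ltbp4 did not pass, with log2 fold changes of -0.12, -0.11, and -0.13. Of the 7 extracellular binding proteins tested, 1 rose and none fell, where 7.94% of all genes tested rose and 7.24% fell. Their median log2 fold change was -0.11.

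Of the 10 receptors tested, none rose and 2 fell, and 4 more were lower by adjusted p alone. Of all genes tested, 7.24% fell and 21.7% were lower by adjusted p whatever the fold. The median log2 fold change of the receptors tested was -0.31. Acvr1c and Bmpr1b, each at 0 in 1 Ad-GFP sample, were not tested. Bmpr1b had 24 fragments in all in Ad-GFP and 71 in Ad-h-NR4A2 samples. The receptors that fell were Tgfbr3 and Acvr2a. Tgfbr3, or betaglycan, is a coreceptor that presents TGF-β2 to the signaling receptors and also binds inhibin. Its FPKM was 8.67 to 11.2 (median 9.98) in Ad-GFP and 4.92 to 7.12 (median 6.26) in Ad-h-NR4A2 samples. The groups did not overlap, and Tgfbr3 (chromosome 14, 3509601 to 3683814) fell by 0.71 on the log2 scale (SE 0.10, adjusted p = 6.35e-05). Acvr2a, a type 2 receptor for activins and several BMPs, had 9.81 to 12.6 FPKM (median 10.5) and 6.19 to 7.80 (median 7.23). Its groups did not overlap either, with Ad-GFP sample 28 far above the other five. Acvr2a (chromosome 3, 38113728 to 38197531) fell by 0.60 on the log2 scale (SE 0.08, adjusted p = 5.40e-05), with a ratio of Ad-GFP to Ad-h-NR4A2 of 1.52, close to the fold limit. Without Ad-GFP sample 28, or Ad-h-NR4A2 sample 25 or 29, the ratio was below the limit and the call was lost, although the log2 fold change remained -0.55 to -0.56.

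Acvr1b, the type 1 receptor of activins, lay just short of the fold limit, with 9.19 ± 1.26 FPKM in Ad-GFP and 6.18 ± 0.492 in Ad-h-NR4A2 samples (SD, n = 6 each), a ratio of 1.49, and a log2 fold change of -0.56 (adjusted p = 2.98e-04). Bmpr1a, a type 1 BMP receptor, was also lower in all Ad-h-NR4A2 samples, at 25.7 to 28.7 FPKM (median 26.9) against 17.6 to 21.0 (median 19.6), a log2 fold change of -0.49 (SE 0.05). Tgfbr2 and Tgfbr1, the TGF-β receptors proper, had log2 fold changes of -0.36 (adjusted p = 0.0196) and -0.27 (adjusted p = 0.0353). These 4 differences passed by adjusted p alone. The receptor with the highest level, the type 2 BMP receptor Bmpr2, had 41.5 ± 5.68 and 41.9 ± 3.61 FPKM (SD, n = 6 each), with a 95% interval of the log2 fold change of -0.17 to 0.21. Acvr1, Acvr2b, and Acvrl1 did not pass, with log2 fold changes of -0.15, -0.02, and -0.00, and Acvrl1, an endothelial receptor, was at only 0.348 and 0.325 FPKM on average.

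**Figure D2:**
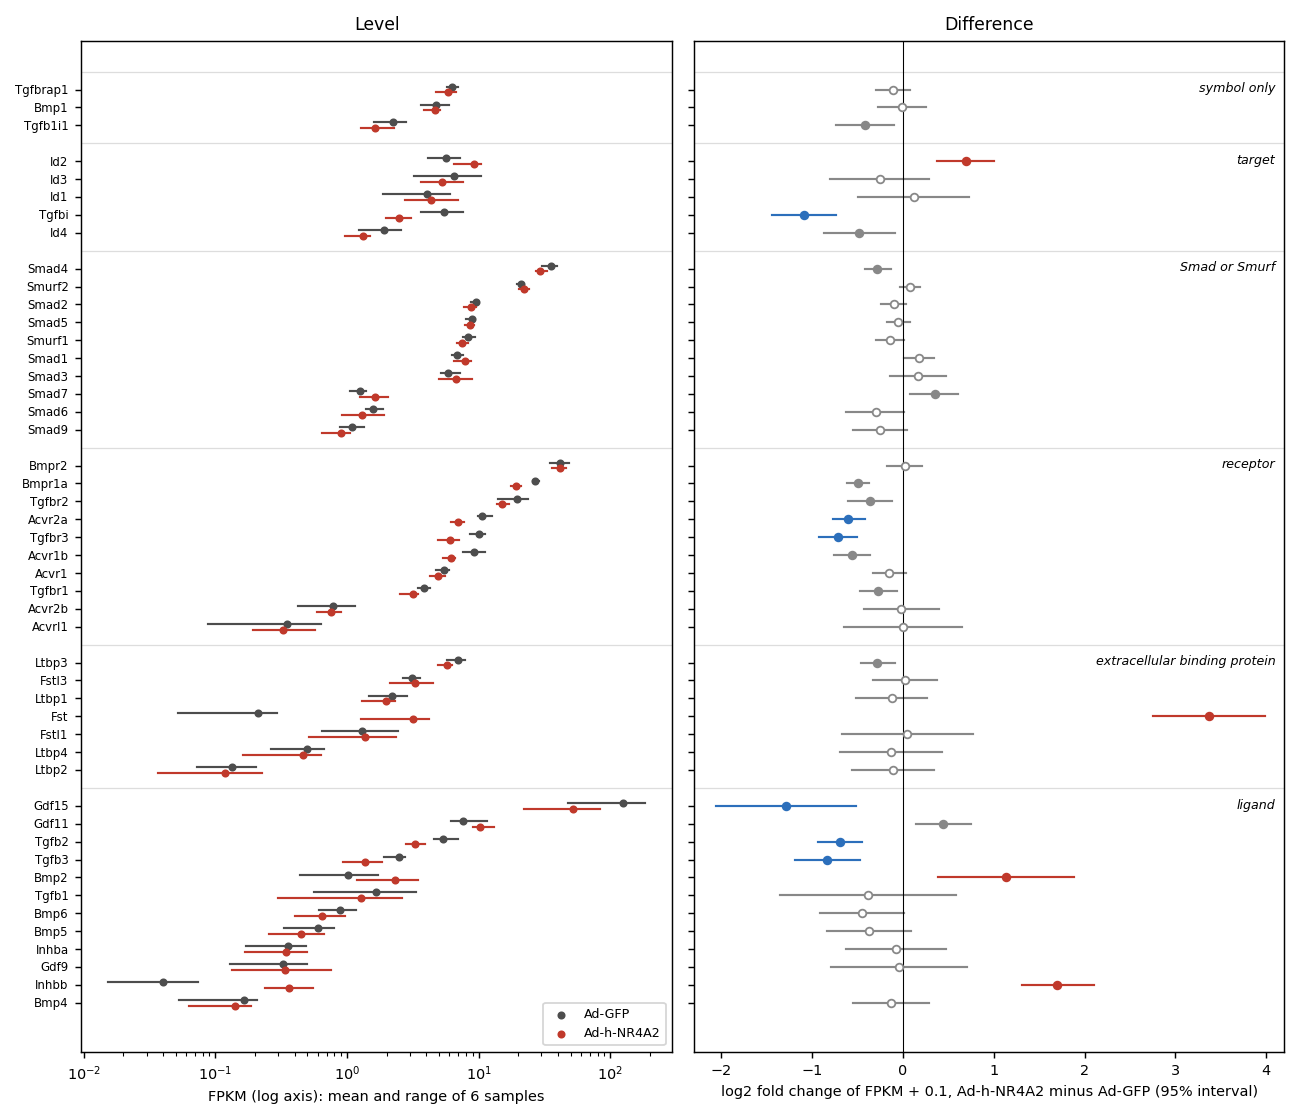
The left panel gives mean FPKM and the range of 6 samples per group (log axis) for the 47 members tested, ordered by level within each role, and the right panel the log2 fold change of FPKM + 0.1, Ad-h-NR4A2 minus Ad-GFP, with its 95% interval. Red and blue points mark the 4 members that rose and the 6 that fell. Filled grey points are members past the adjusted p alone, and open points the rest. Of the 10 receptors tested, 6 were lower by adjusted p whatever the fold (21.7% of all genes tested were), and 4 did not pass.

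No Smad and neither Smurf rose or fell, where 15.2% of all genes tested did, and their median log2 fold change was -0.07. Smad4, the common partner, had the highest level, at 30.2 to 39.6 FPKM (median 35.6) in Ad-GFP and 27.3 to 33.2 (median 28.1) in Ad-h-NR4A2 samples. It was lower in 6 of 6 pairs and passed by adjusted p alone (log2 fold change -0.28, adjusted p = 0.00486). Smad7, an inhibitory Smad that is itself a TGF-β target, was higher in 6 of 6 pairs, at 1.26 ± 0.116 and 1.64 ± 0.303 FPKM (SD, n = 6 each; log2 fold change 0.35, adjusted p = 0.0372). Smad6, the inhibitory Smad of the BMP branch, had a log2 fold change of -0.30 (adjusted p = 0.115) and did not pass. The receptor Smads of the TGF-β branch, Smad2 and Smad3, had log2 fold changes of -0.10 and 0.17, and those of the BMP branch, Smad1, Smad5, and Smad9, of 0.18, -0.05, and -0.25, none of which passed. Under the replicate block, Smad1 passed the adjusted p (0.0128, limma), short of the fold limit. For Smad2, which has 2 listed transcripts, the one with the higher mean FPKM was used. Smurf1 and Smurf2, at 8.25 and 20.9 FPKM on average in Ad-GFP samples, had log2 fold changes of -0.14 and 0.08, and Smurf1 had an adjusted p of 0.115, or 0.0278 with the replicate block (limma).

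Of the 5 target genes tested, 1 rose and 1 fell, where 7.94% of all genes tested rose and 7.24% fell. Tgfbi encodes a secreted matrix protein named for its induction by TGF-β. FPKM was 3.63 to 7.66 (median 5.31) in Ad-GFP and 1.99 to 3.09 (median 2.49) in Ad-h-NR4A2 samples. The groups did not overlap, and sample 27 was the highest in Ad-GFP and the lowest in Ad-h-NR4A2. Tgfbi (chromosome 17, 10576347 to 10605606) fell by 1.09 on the log2 scale (SE 0.16, adjusted p = 1.40e-04). Id2, an inhibitor of basic helix-loop-helix factors, had 4.12 to 7.23 FPKM (median 5.82) and 6.51 to 10.3 (median 9.51). Its groups overlapped through Ad-h-NR4A2 sample 29 alone, and sample 29 was the lowest of both groups. Id2 (chromosome 6, 53084391 to 53086222) rose by 0.69 on the log2 scale (SE 0.14, adjusted p = 0.0017). No other Id gene passed the fold limit. Id1 and Id3, the usual BMP readouts, had log2 fold changes of 0.12 (95% interval -0.49 to 0.73) and -0.25 (-0.80 to 0.29). Id4 was lower by adjusted p alone, at 1.92 ± 0.560 and 1.32 ± 0.211 FPKM (SD, n = 6 each; log2 fold change -0.48, adjusted p = 0.049).

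Of the genes given none of these roles, Tgfb1i1, which encodes the focal adhesion protein Hic-5, was lower by adjusted p alone (log2 fold change -0.42, adjusted p = 0.0367). Bmp1, a protease that cleaves procollagen and chordin, and Tgfbrap1, a trafficking protein that binds TGF-β receptors, had log2 fold changes of -0.01 and -0.11. Over all roles, the groups did not overlap in 10 of the 47 members (21.3%), against 21.5% of all genes. In 2 of these the Ad-h-NR4A2 samples were the higher (4.26%, against 10.9% of all genes), and in 8 the lower (17%, against 10.6%).

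The other 17 members were listed at 0 in at least 1 sample and were not tested. Fstl5, Gdf2, Gdf3, and Inhbc were at 0 in all samples, and Bmp10, Bmp15, Bmp8a, Fstl4, Gdf10, Gdf6, and Gdf7 had at most 6 fragments in all samples of a group together. Acvr1c had 13 fragments in Ad-GFP and 15 in Ad-h-NR4A2 samples in all, Bmp3 had 23 and 10, and Inhbe had 10 and 2. In 3 others the fragments lay mostly in Ad-h-NR4A2 samples. Bmper, a secreted BMP-binding protein, was seen with 0 to 3 fragments in single Ad-GFP samples (8 in all) and with 3 to 25 in Ad-h-NR4A2 samples (83 in all). Bmp7, a BMP ligand, had 0 to 6 and 3 to 22, or 9 and 50 in all, with Ad-h-NR4A2 sample 27 far above the others. Bmpr1b, a type 1 BMP receptor, had 0 to 8 and 10 to 16, or 24 and 71 in all, with no overlap. All 3 were higher in 6 of 6 pairs, and with no filter on low values their adjusted p was 0.00569 for Bmper, 0.0478 for Bmp7, and 0.00559 for Bmpr1b (limma with Benjamini-Hochberg adjustment). These 3 were singled out by the same fragments, so the pairs and the adjusted p are no separate support. In that fit (limma), the lowest adjusted p of the other untested members was 0.0961, for Inhbe. FPKM of Bmpr1b in Ad-h-NR4A2 samples (0.290 to 0.519) remained far below that of Bmpr1a.

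**Figure D3:**
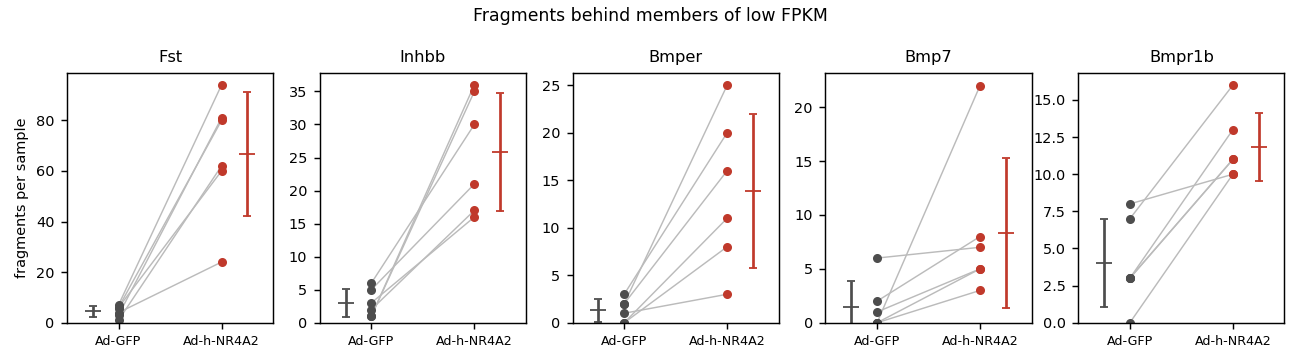
Fragments per sample (vertical axes, each from 0) behind the FPKM of 5 members of low level, with grey lines between samples of the same number and the mean ± SD of 6 samples per group. Fst, Inhbb, and Bmpr1b separate the groups fully, whereas the groups of Bmper meet at 3 fragments and those of Bmp7 overlap between 3 and 6.

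Genes of the pathway outside the symbol rule were taken from a list of 118, of which 102 are in the files and 85 were tested. Of these, 7 rose and 11 fell (21.2% changed, against 15.2% of all genes). Chordin (Chrd), a secreted antagonist of BMPs, rose from 0.0254 to 0.0736 FPKM (median 0.0635) to 0.262 to 0.576 (median 0.380), a log2 fold change of 1.67. Noggin (Nog), another BMP antagonist, was at 0 in 1 Ad-GFP sample and was not tested, with 12 fragments in all in Ad-GFP and 80 in Ad-h-NR4A2 samples. The integrin subunits Itgb6 and Itgb8, which take part in releasing latent TGF-β, rose with log2 fold changes of 0.82 and 1.02, and Itgb8 had the higher FPKM. Emilin1, a matrix protein that limits TGF-β maturation, fell from 39.6 to 84.1 FPKM (median 70.1) to 17.6 to 28.5 (median 21.7), a log2 fold change of -1.54. Twsg1, a chordin partner, fell as well (-0.71). Among coreceptors and receptor regulators, the pseudoreceptor Bambi (-0.59), the BMP coreceptor Rgma (-0.81), and Amhr2 (-0.59) fell, and the scaffold Magi2 rose (0.44). Of the Smad cofactors, Tgif1 (-0.65) and Zeb2 (-0.61) fell and none rose. In the Smad-independent branch, Traf6 (0.70) and Map2k4 (0.59) rose. Target genes from the list that fell include Klf11 (-0.71), Col3a1 (-0.94), and Cdkn1a (-0.66), and the BMP target Msx2 rose (0.88). With the replicate block, the target genes Ctgf, Col1a1, and Lox also fell, with an adjusted p of 5.10e-05, 0.00616, and 0.0447 (limma), and Timp1 rose (adjusted p = 5.47e-04). The genes called only under the block were named after their values were seen. By adjusted p alone, 59.4% of all genes tested passed with the block. Values in parentheses without a label are log2 fold changes of FPKM + 0.1.

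Levels of 3 members, Tgfb1, Fstl1, and Id3, were highest in sample 25 and lowest in sample 28 of both groups, as were the sums of the fibroblast and endothelial markers. That order was seen in 6.38% of the members tested and in 1.16% of all genes tested. The order was chosen after seeing these values, so the shares are a description and no test. None of the 3 rose or fell. The part of other cells in these values was not tested. Leaving out these samples was chosen after seeing the data. With both samples numbered 25 left out, the same 4 members rose and the same 6 fell. With both samples numbered 28 left out, 4 rose and 6 fell, with Acvr1b in place of Acvr2a.

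**Figure D4:**
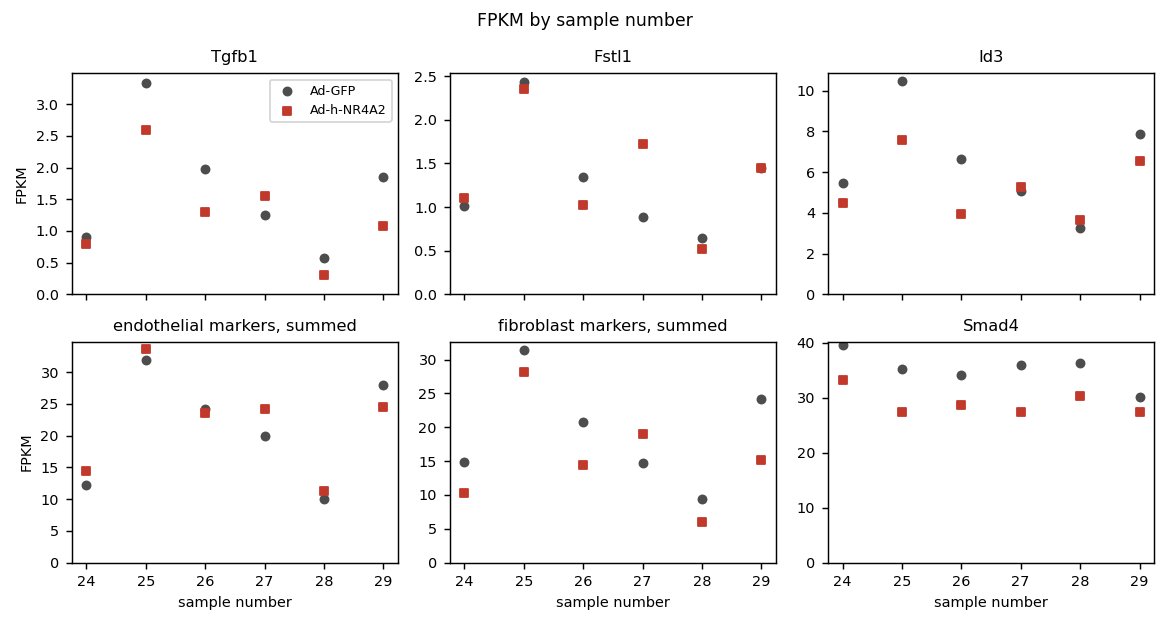
FPKM (vertical axes, each from 0) by sample number for Tgfb1, Fstl1, and Id3, the summed endothelial and fibroblast markers, and Smad4, with 1 point per sample and group. Sample 25 is the highest and sample 28 the lowest of both groups in all panels but that of Smad4, in which every Ad-h-NR4A2 point lies below its Ad-GFP partner.

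Markers of the myocytes and of other heart cells are set beside these members. The 6 macrophage markers summed to 7.03 to 18.1 FPKM (median 13.0) in Ad-GFP and 39.2 to 50.6 (median 43.7) in Ad-h-NR4A2 samples. Most of that sum was Csf1r, at 5.48 to 17.1 and 36.8 to 43.4 FPKM. Of the 5 tested, Csf1r and Cd14 rose (log2 fold changes 2.06 and 1.99), Cd68, Lyz2, and Adgre1 did not pass, and the defining marker Ptprc was at 0 to 0.0489 FPKM in all samples. Of the 6 cardiomyocyte markers, Myh7 and Ryr2 fell, with log2 fold changes of -0.86 and -0.68, and Myh6 and Tnnt2 were lower by adjusted p alone, with -0.56 (adjusted p = 1.14e-04) and -0.26 (adjusted p = 0.00477). In 6 of 6 pairs the cardiomyocyte sum was lower with Ad-h-NR4A2. Of the fibroblast markers, 1 of 9 tested fell (Col3a1), and Col1a1 fell as well under the replicate block. Of the endothelial markers 1 of 8 rose (Egfl7). Smooth muscle and pericyte markers summed to 11.7 to 24.3 FPKM in Ad-GFP and 8.78 to 21.0 in Ad-h-NR4A2 samples, with a median of 13.2 in both, and 1 of 5 tested fell (Myh11). Over all marker lists, 7 of the 33 markers tested changed (21.2%), against 15.2% of all genes. The part of these cells in the results of the members was not tested.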

How the data were processed

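RNA of 12 ARVM samples was sequenced in 1 paired-end run from stranded mRNA libraries. As the study's methods state, the authors used STAR for alignment to rat Rn5 and Cufflinks for quantification; FPKM of 18752 RefSeq transcripts were deposited. Groups come from the sample labels. For a gene with several transcripts, that of the highest mean FPKM was used, genes at 0 in any sample were left out, and log2(FPKM + 0.1) was fitted over all genes with limma 3.58.1 (lmFit, eBayes with trend) in R 4.3.3, two-sided, with Benjamini-Hochberg adjustment. For single members, an exact permutation test (two-sided) over all splits into 6 and 6 was added. FPKM are not counts; fragments were recovered from the steps between low values (99.4% to 99.9% whole per sample within 0.05) and cover counting error only.

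Deviations of same-numbered samples from their group means correlated at 0.347 to 0.623 in all 6 pairs, so the numbers were taken as pairs; the study's statistics are unpaired, and the replicate block was an alternative. Full values are given for every member called, and every receptor and Smad tested and the untested members are named; of the pathway list, only genes called were named by rule, 1 of them is not reported here by itself, and Nog and the genes called only under the block were named after their values were seen. Members, gene lists, and tests were chosen with earlier results of these data known, and the motifs after seeing these results. Alternatives were other pseudocounts, filters, scalings, fold limits, transcript choices, limma without trend, and each sample left out in turn. The fit was tested on simulated data with independent noise per sample and changes larger than those of most members called. The simulated samples had no effect of the sample number, so that test does not cover the correlation within pairs or smaller changes. Other tools were SciPy 1.17.1, NumPy 2.4.6, and pandas 2.3.3 under Python 3.11.15, with plots by Matplotlib 3.10.9. Promoter sequences are from RefSeq (GRCr8), whose coordinates were not mixed with those of Rn5.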

Additional observations from a re-analysis of the deposited data

Results flagged for a closer look

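Among the 47 members tested, 94 sets of 6 samples (1 per member and group) were examined for a sample far from the other five, by a gap larger than Dixon's critical share of the whole range, and 5 were found. Chance alone gives about 1 in 20 sets. Acvr2a had 12.6 FPKM in Ad-GFP sample 28, with the next highest at 10.7. Gdf11 was highest in sample 25 of both groups, at 11.6 FPKM in Ad-GFP (next highest 7.66) and 13.1 in Ad-h-NR4A2 (next highest 10.3). Id2 had 6.51 FPKM in Ad-h-NR4A2 sample 29, where the group median was 9.51. Smad5 had 7.99 FPKM in Ad-GFP sample 25, with the next lowest at 8.88. The difference of Acvr2a lost its call without Ad-GFP sample 28 (log2 fold change -0.55), and that of Id2 kept it without Ad-h-NR4A2 sample 29.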

How the results depend on the processing

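Of 479 log2 fold changes of the 20 members past the adjusted p, under the 24 alternatives that keep the fold limit, 0 changed direction, 466 kept their call or lack of one, 5 lost it, and 8 gained it. The fold limit moved the counts most. At a limit of 2, 3 members rose and 2 fell, and 493 genes in all rose and 310 fell. With no limit, 6 members were higher and 14 lower, and of all genes 2113 were higher and 2371 lower. With a replicate block for the sample number, 4 members rose and 6 fell, and 936 and 889 of all genes, and they were the same members. In that fit 25 members passed the adjusted p. They include 5 that had not passed it in the main fit, all short of the fold limit. Leaving out 1 sample at a time gave 4 to 5 members that rose and 5 to 7 that fell. The filter was applied to the samples kept. Bmpr1b, at 0 in Ad-GFP sample 27 alone, was therefore tested when that sample was left out. Single members crossed the fold limit in a few of these settings (Acvr1b, Acvr2a, and Id4), and Bmp2 lost its call without the filter on low values, where more genes are tested. The median log2 fold change of all genes was -0.025, while quantile normalization gave -0.037 and the TPM scale -0.043. Fst and Inhbb rest on few fragments in Ad-GFP samples, and the log2 fold change ranged from 1.73 to 3.91 for Fst and from 0.39 to 2.98 for Inhbb with pseudocounts of 1 and 0.01.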
